A study of Mus musculus and Sus scrofa with 12 samples.

Results

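The genes described here are 10 regulators and receptors of the blood lineages, namely Gata1, Klf1, Tal1, Nfe2, Gfi1b and Epor of the erythroid lineage, Spi1, Ptprc and Csf1r of macrophages and other white cells, and Runx1 of the earliest blood cells. They were taken by name, 10 among 21774 protein-coding genes of the mouse and 20661 of the pig, of which 14941 had the same symbol in both annotations. Each was looked up in peak lists of 3 histone modifications, H3K4me3, H3K27ac and H3K4me1, made from dissected forelimbs of wild-type embryos. The mouse forelimbs were taken at E11.5 and the pig forelimbs at day 23 of gestation, with littermates as biological replicates. The labels name no mutant allele and no treatment in either species, and they list 12 samples, 2 for every mark in either species. For pig H3K4me1 the design text states 1 biological replicate, so the sources differ there. The libraries were made by ChIPmentation, in which a transposase adds the sequencing adapters to chromatin held by the antibody. A whole limb bud is mostly mesenchyme under an ectoderm, with vessels and circulating blood inside it, so blood cells are a minority whose number was not measured.

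Gata1, a zinc-finger factor that binds GATA words, drives red cell and platelet precursor genes together with the basic helix-loop-helix factor Tal1. With the CACCC-binding factor Klf1 it drives red cell genes. Spi1, which encodes PU.1, drives genes of macrophages and other white cells. Runx1 is needed in mice for blood stem cells to emerge from endothelium and has a distal and a proximal promoter, which are used in different cells. H3K4me3 lies at transcription start sites (TSSs), H3K27ac at active promoters and enhancers, and H3K4me1 at enhancers and the flanks of promoters.

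The promoters of 3 erythroid genes are shown first because they carried H3K4me3 in mouse and differed in whether they carried it in pig, namely Klf1 and Gata1 in mouse only and Epor in both. Each run is 300 bases, from 250 before to 50 after an annotated TSS, 5′ to 3′ on the strand of the gene, so its end lies in the first exon. Capitals mark 3 sets of words on either strand. GATA words are AGATAA as well as TGATAA, with AGATAG as well as TGATAG beside them. CACCC words are either CCACCC or else CACACCC, and E-box words are either CAGATG or else CAGCTG. A word on the other strand appears as its reverse complement, such as TTATCA where the word is TGATAA. Mouse sequences are from the RefSeq promoter table (GRCm38) and pig sequences were read from Sscrofa11.1 at RefSeq TSSs. Mouse Klf1 lies at chr8:84901732-84902031 on the plus strand and pig KLF1 at chr2:66144517-66144816 on the plus strand. Mouse Gata1 lies at chrX:7967861-7968160 on the minus strand and pig GATA1 at chrX:42898181-42898480 on the plus strand. Mouse Epor lies at chr9:21963527-21963826 on the minus strand and pig EPOR at chr2:70068772-70069071 on the minus strand.
Klf1 (mouse): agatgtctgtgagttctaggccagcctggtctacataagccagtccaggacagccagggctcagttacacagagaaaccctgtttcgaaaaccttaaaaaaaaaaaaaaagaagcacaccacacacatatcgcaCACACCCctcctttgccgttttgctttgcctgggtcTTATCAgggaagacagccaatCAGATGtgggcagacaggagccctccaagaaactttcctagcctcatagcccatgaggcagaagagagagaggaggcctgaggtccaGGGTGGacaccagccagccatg
KLF1 (pig): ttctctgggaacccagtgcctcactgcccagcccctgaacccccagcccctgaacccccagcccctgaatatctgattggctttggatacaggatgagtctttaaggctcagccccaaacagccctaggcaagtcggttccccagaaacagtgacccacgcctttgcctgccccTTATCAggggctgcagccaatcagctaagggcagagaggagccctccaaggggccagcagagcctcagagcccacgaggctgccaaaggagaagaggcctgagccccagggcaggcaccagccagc
Gata1 (mouse): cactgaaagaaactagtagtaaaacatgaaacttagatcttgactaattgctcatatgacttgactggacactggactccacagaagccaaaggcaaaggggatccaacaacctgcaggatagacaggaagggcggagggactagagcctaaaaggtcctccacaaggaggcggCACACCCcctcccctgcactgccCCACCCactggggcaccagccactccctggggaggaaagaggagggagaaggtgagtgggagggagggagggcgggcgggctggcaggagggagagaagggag
GATA1 (pig): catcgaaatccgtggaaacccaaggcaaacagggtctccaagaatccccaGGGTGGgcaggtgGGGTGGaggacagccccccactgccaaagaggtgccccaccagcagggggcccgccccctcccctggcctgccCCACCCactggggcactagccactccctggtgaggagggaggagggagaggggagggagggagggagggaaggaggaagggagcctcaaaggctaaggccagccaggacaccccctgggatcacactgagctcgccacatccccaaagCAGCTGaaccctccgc
Epor (mouse): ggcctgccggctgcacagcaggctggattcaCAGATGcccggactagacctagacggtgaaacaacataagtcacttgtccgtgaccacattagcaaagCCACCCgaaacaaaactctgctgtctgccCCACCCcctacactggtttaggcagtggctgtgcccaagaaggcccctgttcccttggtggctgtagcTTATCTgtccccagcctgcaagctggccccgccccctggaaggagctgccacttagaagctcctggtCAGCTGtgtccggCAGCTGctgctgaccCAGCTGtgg
EPOR (pig): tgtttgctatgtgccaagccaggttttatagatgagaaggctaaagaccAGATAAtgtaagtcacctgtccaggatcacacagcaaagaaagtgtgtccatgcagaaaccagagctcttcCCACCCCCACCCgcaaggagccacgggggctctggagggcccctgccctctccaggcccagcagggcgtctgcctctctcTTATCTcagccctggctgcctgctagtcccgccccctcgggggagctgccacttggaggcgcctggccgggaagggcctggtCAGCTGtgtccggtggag

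The proximal promoter of Runx1 is shown because the pig annotation has no TSS there and its counterpart was found by sequence alone. The mouse run is 300 bases at chr16:92697280-92697579 on the minus strand (GRCm38), and the pig run is the 248 bases at chr13:198469953-198470200 on the minus strand (Sscrofa11.1) that matched it at 87.9% identity. Capitals mark each CG pair, of which the mouse run has 35 and the pig run 30, whereas the 300 bases of Klf1 and KLF1 have 3 each.
Runx1 proximal (mouse): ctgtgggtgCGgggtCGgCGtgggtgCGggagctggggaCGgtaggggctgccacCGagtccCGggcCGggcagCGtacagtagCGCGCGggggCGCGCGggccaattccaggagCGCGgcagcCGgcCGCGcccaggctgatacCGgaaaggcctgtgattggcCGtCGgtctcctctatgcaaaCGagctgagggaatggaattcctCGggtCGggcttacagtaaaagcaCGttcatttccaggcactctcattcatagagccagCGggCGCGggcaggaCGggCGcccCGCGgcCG
RUNX1 counterpart (pig): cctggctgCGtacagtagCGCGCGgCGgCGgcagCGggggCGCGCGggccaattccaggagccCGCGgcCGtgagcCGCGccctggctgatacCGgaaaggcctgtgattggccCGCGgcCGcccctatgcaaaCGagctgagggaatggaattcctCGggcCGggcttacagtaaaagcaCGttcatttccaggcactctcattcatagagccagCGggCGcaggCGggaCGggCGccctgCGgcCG

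The first question was which marks lay at the start sites of the blood genes in each species. A gene was called marked where at least 1 bp of a peak fell within 1 kb of an annotated TSS of that gene, before or after it. H3K4me3 marked all 10 genes in mouse, whereas in pig it marked 3 of 10 (Tal1, Nfe2 and Epor). Among all coding genes it marked 65.0% in mouse and 64.9% in pig. H3K27ac marked 3 of 10 mouse genes (Klf1, Tal1 and Runx1) and 0 of 10 pig genes, against 41.6% and 46.7% of all coding genes. H3K4me1 marked 6 of 10 in each species, against 54.7% in mouse and 61.3% in pig. The H3K4me1 genes were not the same, since Klf1 was marked in mouse only and Spi1 in pig only. Counted by TSS, H3K4me3 lay at 36 of 40 mouse sites and 3 of 20 pig sites, H3K27ac at 12 and 0, and H3K4me1 at 19 and 13.

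**Figure D1:**
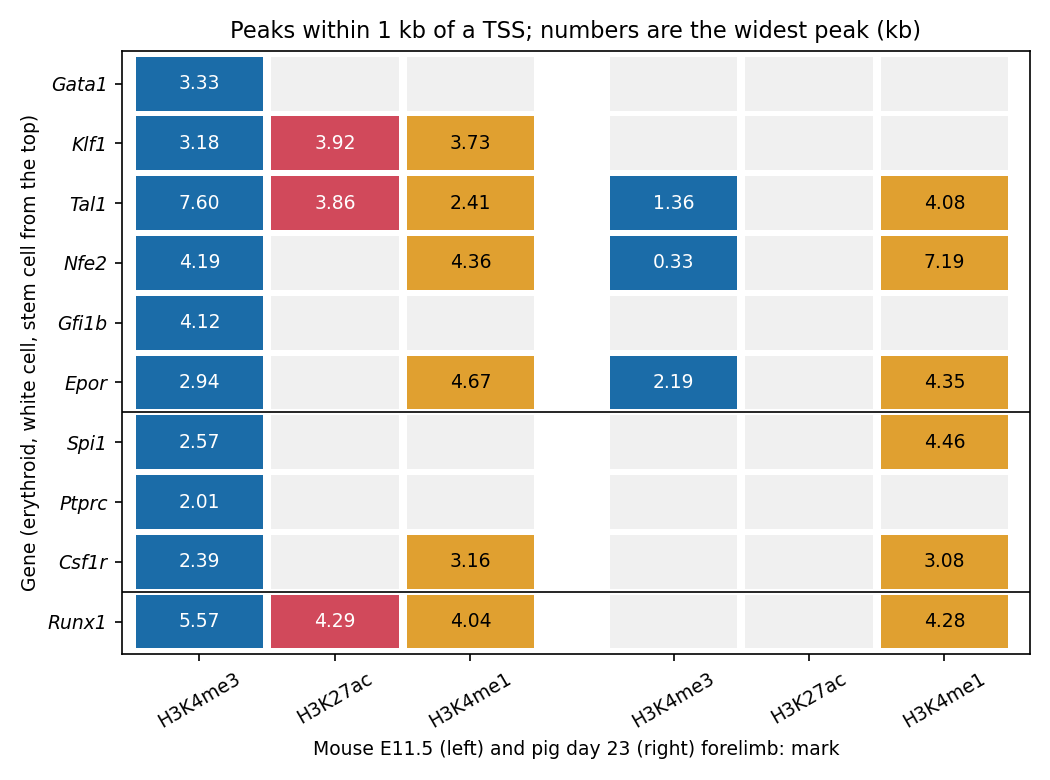
Marks at the start sites of the 10 genes, one gene per row, with the 3 marks of mouse on the left and of pig on the right; a coloured cell means a peak within 1 kb of a TSS and its number is the width of the widest such peak in kb. The H3K4me3 column is filled for 10 genes in mouse and 3 in pig, and the H3K27ac column for 3 in mouse and none in pig at annotated TSSs.

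The 7 genes whose H3K4me3 call differed between the species were all marked in mouse and not in pig. Among the 14941 orthologs H3K4me3 was in both species for 74.7%, in mouse only for 7.16% and in pig only for 3.15%. For H3K27ac the mouse-only genes were Klf1, Tal1 and Runx1, against 9.56% of orthologs marked in mouse only and 13.1% in pig only, and for H3K4me1 Klf1 was marked in mouse only and Spi1 in pig only, against 13.9% and 17.4%. Most of the exact combinations were held by few orthologs. Gata1, Gfi1b and Ptprc had H3K4me3 alone in mouse and nothing in pig, a pattern of 112 orthologs (0.75%). Klf1 had all 3 marks in mouse and nothing in pig, as had 123 orthologs (0.823%). Nfe2 and Epor had H3K4me3 with H3K4me1 in both species, a pattern of 1418 orthologs (9.49%), and the pattern of Tal1, all 3 marks in mouse and H3K4me3 with H3K4me1 in pig, was that of 734 (4.91%). In mouse 4 of the 10 genes had H3K4me3 alone, against 7.15% of all coding genes, 3 had all 3 marks, against 31.6%, 3 had H3K4me3 with H3K4me1, against 17.4%, and 0 had no mark, against 28.7%. In pig 4 of the 10 had no mark, against 24.6%, 3 had H3K4me1 alone, against 8.89%, 3 had H3K4me3 with H3K4me1, against 16.2%, and 0 had all 3 marks, against 35.0%.

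The lists hold 1 consensus per species and mark with no value per sample, so no difference could be set against a spread between embryos and no test was made. With the narrower 50% of peaks in each list left out, H3K4me3 marked 5 genes in mouse and 1 in pig. The shares of all coding genes were then 40.4% and 42.9%. With the 5′ end of the gene record as the only TSS, H3K4me3 marked 7 in mouse and 1 in pig (EPOR). The shares there were 61.1% and 61.5%. Reads of the mouse libraries were cut down from 100 bp to 50 bp, whereas those of pig H3K4me3 and H3K27ac were 50 bp from the start, so the length read on the sequencer went with species for these marks, while the length aligned was the same. In bulk tissue, fewer blood cells and less of a mark per blood cell cannot be told apart.

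Of the 6 erythroid genes, H3K4me3 marked 6 in mouse, against 3 in pig, H3K27ac marked 2, against 0, and H3K4me1 marked 4, against 3. The shares of all coding genes were 65.0% and 64.9% for H3K4me3, 41.6% and 46.7% for H3K27ac, and 54.7% and 61.3% for H3K4me1. Gata1 had a 3332 bp H3K4me3 peak over the TSS of its curated transcript in mouse (chrX:7965238-7968569) and no H3K27ac or H3K4me1 within 1 kb. In pig the nearest H3K4me3 peak to GATA1 lay 18.7 kb downstream and was nearest to HDAC6, which encodes a deacetylase of the cytoplasm. Klf1, a Krüppel-like factor that activates adult beta-globin, had all 3 marks in mouse, with peaks of 3181 bp for H3K4me3, 3916 bp for H3K27ac and 3731 bp for H3K4me1. In pig the H3K4me3 peak nearest to KLF1 lay 4.97 kb downstream, with an H3K27ac peak at 5.04 kb, and both were nearest to DNASE2, a nuclease of lysosomes. Gfi1b, a zinc-finger repressor of red cell and platelet precursors, had a 4115 bp H3K4me3 peak alone in mouse, and in pig the nearest lay 14.6 kb away, nearest to TSC1. The 3 genes thus had H3K4me3 over the promoter in mouse, while the nearest pig H3K4me3 peaks were nearest to other genes. H3K4me1 lay inside pig GFI1B, in an intron 1901 bp after the TSS, and at none of the other two pig genes.

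Tal1, Epor and Nfe2 were marked by H3K4me3 in both species. A peak came within 1 kb of the first annotated start of Epor in both species, but of Tal1 in mouse only. The pig peak inside TAL1 lay at a start whose sequence match was under the mouse Tal1 peak. Mouse Tal1 had a 7600 bp H3K4me3 peak (chr4:115056883-115064482) over 7 of its 10 TSSs and within 1 kb of the others, and a 3864 bp H3K27ac peak. Pig TAL1 had no mark within 1 kb of its first 3 TSSs, and its H3K4me3 peak of 1357 bp was centred 6.69 kb inside the gene on the TSS of a predicted transcript, with 4076 bp of H3K4me1. A further pig H3K4me3 peak of 1374 bp was centred at -3.48 kb, before the gene. Epor, the receptor for erythropoietin, had 2935 bp of H3K4me3 with 4674 bp of H3K4me1 in mouse, and 2195 bp with 4350 bp in pig, all overlapping the annotated start. H3K27ac was called at neither, and the nearest lay 5.05 kb downstream in mouse and 7.09 kb in pig, closest to Swsap1 in both. Nfe2, the p45 subunit of the factor NF-E2, had a 4187 bp H3K4me3 peak in mouse reaching 8 of its 9 TSSs. In pig it had 325 bp, beginning 232 bp after the TSS of the curated transcript, beside H3K4me1 peaks of 3706 bp and 7193 bp.

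Of the 3 white cell genes, H3K4me3 marked 3 in mouse, against 0 in pig, and H3K27ac marked 0 in each. Over all coding genes H3K4me3 marked 65.0% and 64.9%, and H3K27ac 41.6% and 46.7%. With the narrower 50% of peaks left out, H3K4me3 marked 0 of the 3 in mouse as well as in pig, against 40.4% and 42.9% of all coding genes. With peaks in the gene body and 5 kb before it counted, H3K27ac was at 0 in mouse and 3 in pig. The shares of all coding genes were then 50.7% and 56.4%, and the SPI1 peak was nearest to MYBPC3. At the start sites H3K4me1 marked 1 in mouse (Csf1r), against 2 in pig (Spi1 and Csf1r), beside 54.7% and 61.3% of all coding genes. The mouse H3K4me3 peaks were 2568 bp at Spi1, 2012 bp at Ptprc, which encodes the white cell phosphatase CD45, and 2391 bp at Csf1r, the receptor for macrophage colony-stimulating factor. Spi1 had H3K4me3 alone in mouse, while in pig 4461 bp of H3K4me1 lay over its start with no H3K4me3. Csf1r had 3159 bp of H3K4me1 in mouse beside its H3K4me3, and 3082 bp in pig with none. Pig H3K4me3 lay farthest from PTPRC, at 196 kb, and at 58.9 kb from CSF1R, there nearest to PDGFRB, a receptor of mesenchymal cells. At SPI1 it lay 15.9 kb downstream, over the end of the gene and nearest to MYBPC3, and a mouse peak of 2478 bp likewise lay over the end of Spi1. Spi1 and Ptprc therefore had the mouse state of Gata1 and Gfi1b, H3K4me3 alone. Csf1r had that of Nfe2 and Epor, H3K4me3 with H3K4me1. In pig H3K4me1 was the mark at the start sites of Spi1 and Csf1r.

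Runx1 had both promoters marked in mouse. At the proximal promoter it had 5565 bp of H3K4me3 (chr16:92693206-92698770), 4293 bp of H3K27ac and 4041 bp of H3K4me1, and at the distal promoter it had 3436 bp of H3K4me3 alone. Pig RUNX1 has 4 annotated TSSs, all at the distal promoter, with 4277 bp of H3K4me1 and no other mark. The window around the mouse proximal TSS matched pig chr13:198468995-198470294 over 1360 aligned positions at 76.8% identity, within the gene and 166 kb from its nearest annotated TSS. In pig 2039 bp of H3K4me3 (chr13:198469889-198471927) and 2496 bp of H3K27ac overlapped the counterpart printed above, and 1962 bp of H3K4me1 lay 291 bp from it. Another pig H3K4me3 peak, of 1018 bp, lay next to the first. The proximal promoter thus had all 3 marks in both species, and the count of pig genes marked becomes 4 of 10 for H3K4me3 and 1 of 10 for H3K27ac when sequence matches of start sites are counted with annotated ones, a choice made after the data were seen. The counts in mouse stay at 10 and 3, and H3K4me1 stays at 6 in each species.

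The same search was run for every cluster of TSSs, to see whether other pig peaks sat at start sites that the annotation lacks. Of 21 mouse windows 19 had a match in the pig locus, and 17 of those carried H3K4me3 in mouse. Of the 19 pig matches, H3K4me3 lay within 1 kb of 4, H3K27ac of 1 and H3K4me1 of 10. Windows of the same gene could share a match, as at Ptprc and Tal1, so these are not counts of genes. In the other direction 11 of 14 pig windows matched, of which 3 carried H3K4me3 in pig, and at their mouse matches H3K4me3 lay at 11. Every gene was already marked by H3K4me3 in mouse, so that last count adds little. The Gata1 promoter matched its pig counterpart over 958 aligned positions at 69.5% identity, Klf1 over 237 at 78.9%, Ptprc over 482 at 79.3% and Gfi1b over 122 at 85.2%, and none of these pig matches had a mark. Spi1 matched over 784 positions at 83.8%, with H3K4me3 at the mouse site and H3K4me1 at the pig site. The first promoter of Tal1 matched at up to 69.0%, with all 3 marks in mouse and none in pig. The internal pig TAL1 start matched mouse sequence at 87.2%, which lay under the 7600 bp mouse H3K4me3 peak. Csf1r gave no match.

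**Figure D2:**
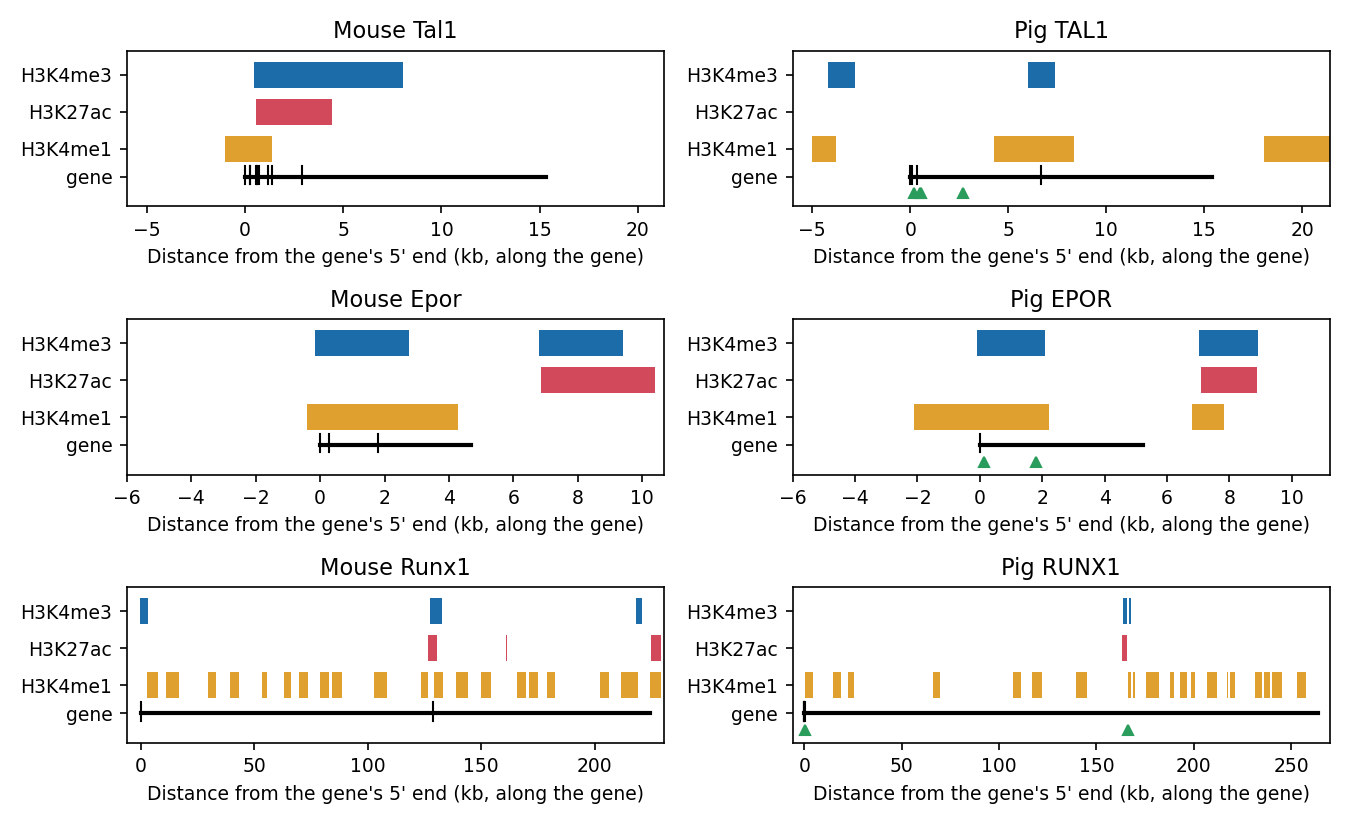
Peaks of the 3 marks along Tal1, Epor and Runx1 in mouse (left) and pig (right), against the distance in kb from the 5′ end of the gene along its direction; the black line is the gene, ticks on it are annotated TSSs, and green triangles in pig are sequence matches of mouse TSS windows. H3K4me3 lies over 7 of the 10 Tal1 starts in mouse and lies before and inside the gene in pig, the Epor starts are alike, and the inner triangle of RUNX1 lies at pig H3K4me3 and H3K27ac peaks where no TSS is annotated.

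Widths of the H3K4me3 peaks at the blood genes spanned most of the range of mouse TSS peaks. Peaks at coding TSSs had a median width of 3429 bp in mouse against 1852 bp in pig. Ranked by the percent of TSS peaks of the same list that were narrower, mouse Tal1 at 7600 bp stood at the percentile 99.8 and Runx1 at 5565 bp at 98.6, while Ptprc at 2012 bp stood at 3.05, Csf1r at 6.62 and Spi1 at 9.56. Each white cell gene thus had a peak narrower than that of every erythroid gene in mouse, of which Epor at 2935 bp was the narrowest (22.2). Klf1 stood at 35.2, Gata1 at 43.7, Gfi1b at 83.9 and Nfe2 at 86.2. In pig, TAL1 at 1357 bp stood at 17.8, NFE2 at 325 bp at 0.419 and EPOR at 2195 bp at 70.0. Mouse over pig, the width was 5.60 times for Tal1, 12.9 times for Nfe2 and 1.34 times for Epor. With each width divided by the median of its own list the ratios were 3.02, 6.96 and 0.722, so that the direction for Epor turned. The 3 mouse H3K27ac peaks were of like width, at 4293 bp for Runx1 (84.0), 3916 bp for Klf1 (75.1) and 3864 bp for Tal1 (73.9).

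**Figure D3:**
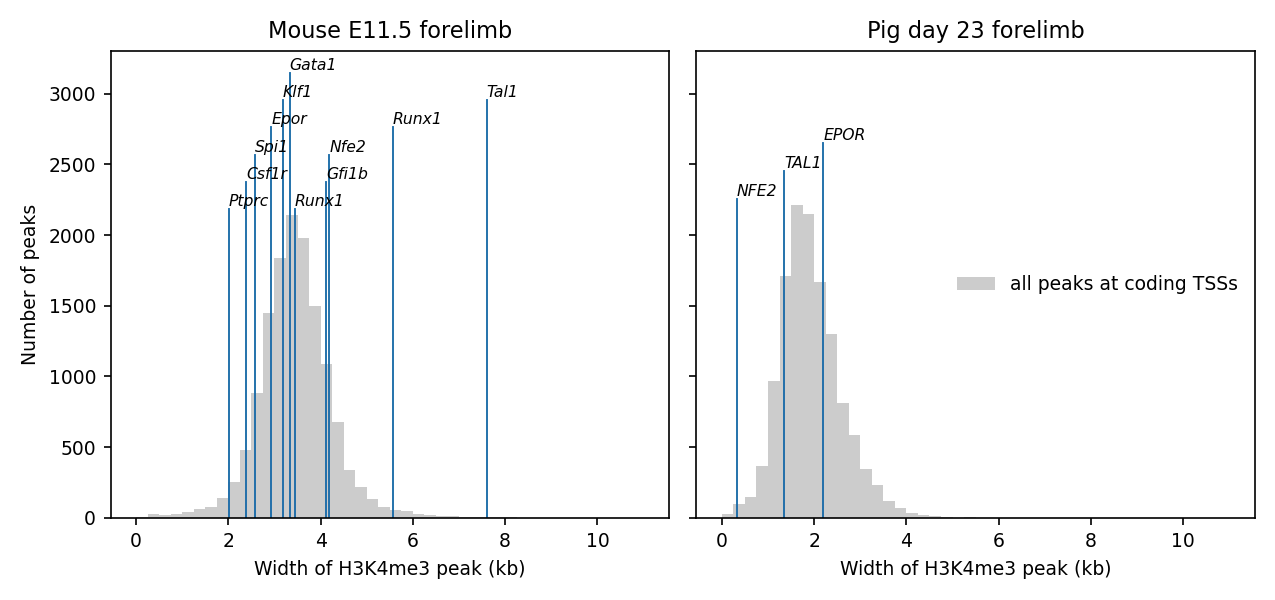
Width of H3K4me3 peaks at coding TSSs in mouse (left) and pig (right), with width in kb on the horizontal axis and the number of peaks on the vertical axis; grey bars are all such peaks and each blue line is a peak at a blood gene, with Runx1 drawn for both promoters. Mouse Tal1 and Runx1 lie in the right tail, the white cell genes on the left slope, and pig NFE2 at the left end.

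Peaks as wide as these can reach a neighbouring start. In mouse the midpoint of the H3K4me3 peak was nearer to a TSS of another annotated gene at Gata1 (the predicted gene Gm52419) and Gfi1b (Gm52548), and the midpoint of the Tal1 H3K27ac peak was nearest to Gm33786. Those peaks still overlapped the windows of the blood genes, but they cannot be given to one gene or the other. No H3K4me3 peak at a pig blood gene was nearer to another gene.

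The start sites of the blood genes were poor in CpG, which bears on H3K4me3 because this mark follows CpG-rich promoters in most tissues. The ratio of observed to expected CpG in the 500 bp on each side of a TSS, taken at the TSS of the gene with the highest ratio, had a median of 0.32 over the 10 genes in mouse and 0.36 in pig, against 0.62 and 0.69 over all coding genes. The lowest was Klf1, at 0.11 in mouse and 0.13 in pig, and the highest was Tal1, at 0.89 and 1.04. Among coding genes with a ratio under 0.25, H3K4me3 marked 5.10% in mouse and 5.31% in pig, and of the blood genes there 3 of 3 were marked in mouse (Gata1, Klf1 and Csf1r) against 0 of 2 in pig (GATA1 and KLF1). Between 0.25 and 0.5 it marked 40.9% of coding genes in mouse and 19.4% in pig, with 4 of 4 blood genes marked in mouse against 2 of 6 in pig. Pig RUNX1 was counted there as unmarked, at 0.39, by a distal TSS. Mouse Runx1 stood at 0.86 by its proximal TSS, which the pig annotation lacks and whose pig match had H3K4me3. Between 0.5 and 0.75 it marked 92.5% and 84.0%, with Epor marked in mouse and CSF1R not marked in pig, and above 0.75 it marked 98.8% and 96.7%, with Tal1 and Runx1 marked in mouse and TAL1 in pig. Pig TAL1 stood at the percentile 98.8 of CpG ratio, where its CpG-rich first promoter had no mark, and its call came from the internal TSS. The 10 mouse calls were therefore spread over all CpG classes, including the class in which few coding genes had the mark.

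**Figure D4:**
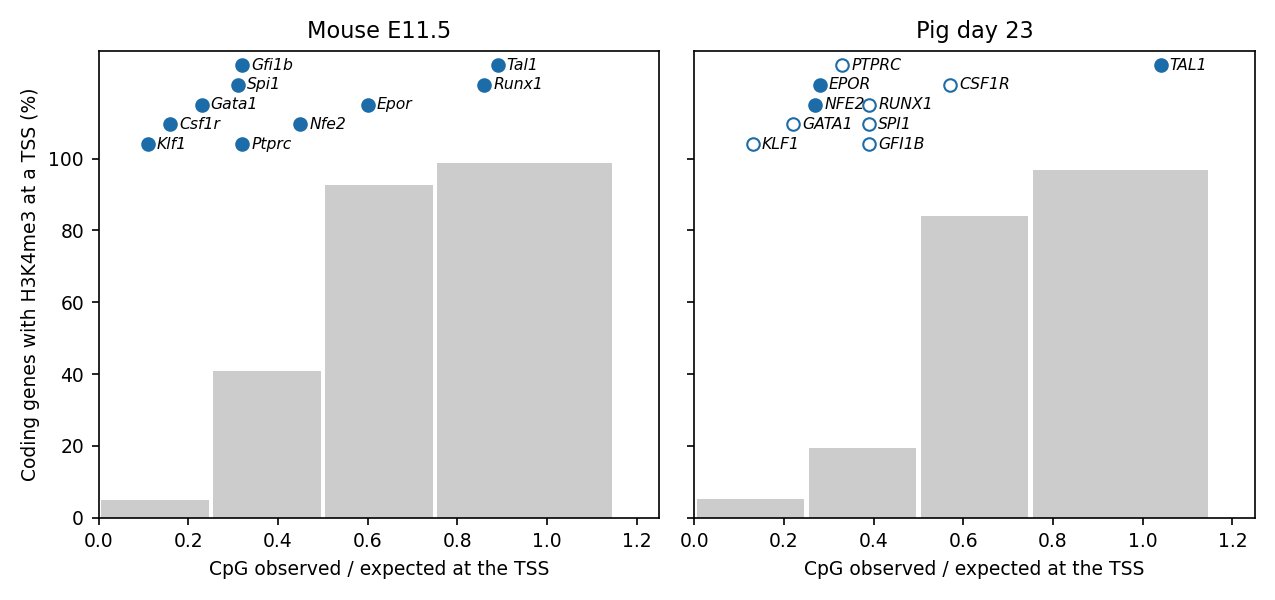
Share of coding genes with H3K4me3 at a TSS (percent, grey bars) in 4 classes of CpG observed over expected (horizontal axis), in mouse (left) and pig (right); circles above the bars are the blood genes at their own ratio, filled where marked, and their height has no meaning. All 10 mouse circles are filled down to the lowest class, and in pig 3 of 10 are. The pig RUNX1 circle is placed by a distal TSS, since the proximal one is not annotated.

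The motif words were then counted in the same windows of 300 bases, on both strands and with the palindromic word counted once. The RefSeq promoter table matched 7 of the 10 genes in mouse (Epor, Gata1, Gfi1b, Klf1, Ptprc, Runx1 and Tal1, with 10 promoters), and all 10 pig genes had windows read from the genome (20, some overlapping). GATA words were in 5 of the 10 mouse promoters (50.0%) and 9 of the 20 pig windows (45.0%), against 29.8% of all mouse promoters in the table and 20.9% of all pig windows. CACCC words were in 3 of 10 and 8 of 20, against 36.5% and 39.6%, and E-box words in 4 of 10 and 6 of 20, against 30.6% and 28.0%. The PU.1 word GAGGAA was in 4 of 10 and 6 of 20, against 28.3% and 25.6%, and the RUNX words, either TGTGGT or else TGCGGT, were in 3 of 10 and 5 of 20, against 22.4% and 22.9%. In the sequences above, with the base before the TSS counted as position -1, the GATA word of Klf1 (TGATAA, reverse strand) began at -80 in mouse and -76 in pig, where the gene had no mark. Mouse Klf1 also had CACACCC at -116 and CAGATG at -59, and neither word was in the pig window. Epor had AGATAA on the reverse strand at -54 in mouse and -50 in pig. Gata1 had no GATA word in either window. It had CCACCC on its own strand at -53 in mouse and -114 in pig, and CACACCC at -76 in mouse only.

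Distal peaks were those with a midpoint within 200 kb of a TSS of the gene that overlapped neither the 1 kb window of any annotated TSS nor an H3K4me3 peak. A distal H3K27ac peak was present for 8 of 10 mouse genes and 10 of 10 pig genes, against 71.6% and 75.0% of all coding genes. For H3K4me1 it was 10 of 10 in each, against 85.9% and 91.7%. The 10 genes had 26 distal H3K27ac peaks in mouse and 33 in pig, counting a peak once for each gene it reached, with medians of 2.00 and 2.5 per gene against 2.00 and 2.00 over all coding genes. Within 50 kb there were 3 in mouse and 10 in pig. The summed length of the peaks within 200 kb ran the other way, at 62.3 kb in mouse and 44.2 kb in pig. The whole H3K27ac lists did the same, with 20875 peaks covering 61786 kb in mouse and 27566 covering 34093 kb in pig. Distal H3K4me1 peaks numbered 121 in mouse and 181 in pig, with medians of 10.0 and 19.5 per gene against 7 and 12 over all coding genes, and covered 425 kb and 545 kb. The whole H3K4me1 lists held 69962 peaks covering 238241 kb in mouse and 103373 covering 320404 kb in pig. Of these H3K27ac peaks, 5 in mouse and 8 in pig were closest to a gene among the 10. The like share over all coding genes was not counted. At Klf1, for example, the 2 mouse and 5 pig peaks were closest to the neighbours Lyl1, Nfix and GNG14. Lyl1 is among the partner factors counted below.

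Ptprc had most of the distal H3K27ac peaks that were closest to a gene among those described here. It had 6 distal peaks in each species, 4 of which were closest to Ptprc in mouse and 6 in pig. In mouse those 4 were centred at -17.2, 132, 146 and 163 kb from the TSS, with positive values after it. In pig they were centred at -38.6, -18.2, 16.9, 35.1, 131 and 138 kb, with those at 16.9 and 35.1 kb in introns. The mouse peak at -17.2 kb (chr1:138191531-138194428) and the pig peak at -18.2 kb (chr10:21464287-21465303) matched each other over 99 aligned positions at 80.8% identity, and both also overlapped H3K4me1. The gene thus had no H3K27ac at its start in either species and a matching distal peak in both. Spi1 had 2 and 3 distal H3K27ac peaks, none closest to it. Mouse Csf1r had 5, none closest to it, and pig CSF1R had 2, of which a 434 bp peak lay in its own intron 7.38 kb after a TSS.

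Gata1 and Tal1 had no distal H3K27ac peak in mouse, and in pig they had 1 and 2, closest to other genes. Runx1 had the most distal H3K4me1 of the 10 genes in mouse, with 31 peaks covering 129 kb, 23 of them closest to it, against 20 covering 66.8 kb in pig, 18 of them closest to it. The lengths searched differed, since the mouse TSSs span 129 kb and the pig annotation lacks the proximal TSS. Within the gene and 5 kb before it, H3K4me1 peaks numbered 20 in each species and covered 82.5 kb in mouse and 71.2 kb in pig. Of distal H3K27ac it had 2 peaks in mouse, 1 of 439 bp in its own intron 32.6 kb after the proximal TSS and 1 of 591 bp in Clic6 at 178 kb, and in pig it had 1 peak of 583 bp centred at -143 kb. Across all 10 genes, 16 of the 26 mouse distal H3K27ac peaks had a sequence match in the pig locus. Of these matches 5 lay under pig H3K27ac, 11 under pig H3K4me1 and 5 under no mark. Of the 33 pig peaks 21 had a match in the mouse locus. Of these matches 8 lay under mouse H3K27ac, 14 under mouse H3K4me1 and 5 under no mark. The mouse match of the KLF1 peak at -170 kb also lay under H3K4me3. How often other matched sequence lies under these marks was not counted.

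Genes of the same pathways and cells were counted next, from lists of known genes and only at annotated TSSs. These lists and those below were chosen with earlier results of these data known. Their counts are therefore no independent check of the results above. The 12 factors that work with the erythroid and stem cell regulators had like counts in both species. H3K4me3 was at 11 in mouse and 10 in pig, H3K27ac at 8 in each and H3K4me1 at 9 in each. Over all coding genes the shares were 65.0% and 64.9% for H3K4me3, 41.6% and 46.7% for H3K27ac, and 54.7% and 61.3% for H3K4me1. H3K27ac lay in mouse at Bcl11a, a repressor of fetal globin, Cbfb, the partner of RUNX proteins, Gata2, Kit, the receptor for stem cell factor, Ldb1 and Lmo2, which bridge Tal1 and Gata1 in 1 complex, Myb and Tcf3. In pig it lay at 7 of these genes, all but GATA2, which had H3K4me3 and H3K4me1 there. It also lay at pig ZFPM1, a cofactor of Gata1 named here after its values were seen, which in mouse had H3K4me3 and H3K4me1. Several of these genes also work outside blood, so their marks do not speak for blood cells alone.

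Genes for the proteins of red cells came next, and their likeness to the erythroid regulators was not tested. Of 14 genes for membrane, skeleton and haem proteins, H3K4me3 marked all 13 annotated in mouse against 3 of 14 in pig, H3K27ac 2 and 1, and H3K4me1 3 and 6. Over all coding genes the shares were 65.0% and 64.9% for H3K4me3, 41.6% and 46.7% for H3K27ac, and 54.7% and 61.3% for H3K4me1. Of the 13 orthologs, 10 had H3K4me3 in mouse only, 3 in both and 0 in pig only, against 7.16%, 74.7% and 3.15% of all orthologs. In mouse 9 of 13 had H3K4me3 alone, against 2 of the 6 erythroid regulators and 7.15% of all coding genes. In pig none did, against 3.67% of all coding genes. H3K27ac was at Gypc, which encodes the widely expressed glycophorin C, in both species and at Tfrc, the transferrin receptor, in mouse only. Pig genes with no mark at all included ALAS2, EPB42, RHAG, KEL, ERMAP, HEMGN and TFRC, named here after their values were seen. Of the 18 macrophage effectors, H3K4me3 marked 11 in mouse against 3 of the 17 annotated in pig, H3K27ac 3 and 1, and H3K4me1 7 and 10. The shares of all coding genes are those given for the red cell list. H3K27ac was at Cd14, Cd68 and Laptm5 in mouse and at LAPTM5 in pig. No mark lay at Cx3cr1, Cybb, Itgam, Trem2 or Vav1 in mouse, or at ADGRE1, FCER1G, ITGAM, TREM2, C1QB, C1QC or VAV1 in pig, also named after their values were seen. Of 17 macrophage orthologs 8 had H3K4me3 in mouse only, 3 in both and 0 in pig only, against 7.16%, 74.7% and 3.15% of all orthologs. Of platelet precursor genes, H3K4me3 marked 1 of 5 in mouse against 1 of 4 in pig, beside 65.0% and 64.9% of all coding genes. The part of blood cell number in the counts of the 10 genes was not tested.

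Markers of other cells in the limb, and housekeeping genes, were counted for comparison. Limb mesenchyme genes, such as Gli3, Hand2, Lhx9 and Meis1, had H3K4me3 at all 10 in mouse and at 9 of the 10 in pig, with the same counts for H3K27ac. Housekeeping genes with H3K4me3 were 10 of 10 in mouse and all 9 annotated in pig, and with H3K27ac 10 and 8. Most genes of both lists thus had H3K4me3 and H3K27ac in both species. The genes were chosen with earlier results of these data known, so the counts are no independent check of the tissue. Of 10 endothelial genes, H3K4me3 was at 9 in mouse against 5 in pig, H3K27ac at 3 and 2, and H3K4me1 at 5 in each. Over all coding genes the shares were 65.0% and 64.9% for H3K4me3, 41.6% and 46.7% for H3K27ac, and 54.7% and 61.3% for H3K4me1. Of the endothelial genes, Fli1 had all 3 marks in both species and Erg had H3K4me3 and H3K27ac in both. Cdh5 and Emcn had H3K4me3 in mouse only. H3K4me3 was thus called at fewer genes in pig in the red cell, macrophage and endothelial lists, and not in the short platelet precursor list. The difference between lists was not tested.

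**Figure D5:**
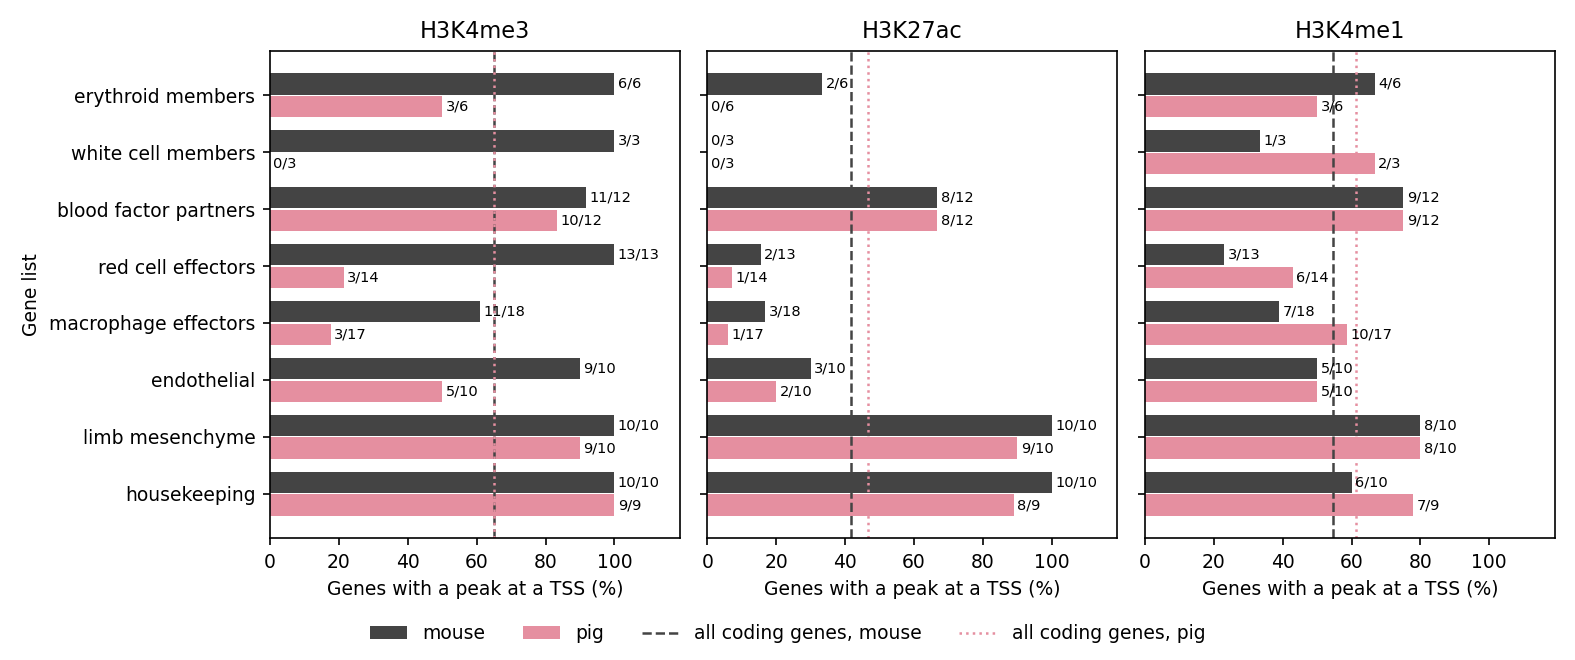
Percent of the annotated genes of each list with a peak within 1 kb of a TSS, for H3K4me3, H3K27ac and H3K4me1 (panels from left), in mouse (dark bars) and pig (pink bars), with the number of genes beside each bar and the percent over all coding genes as dashed (mouse) and dotted (pig) lines. H3K4me3 bars of erythroid, white cell, red cell, macrophage and endothelial genes are longer in mouse, and those of partners, mesenchyme and housekeeping genes are nearly equal.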

How the data were processed

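The authors deposited 6 consensus peak lists, 1 per species and mark, that give chromosome, start and end with no score, so depth and spread between samples are unknown and leaving out a sample could not be run. Per the labels and the series' design text, reads of 50 bp were aligned to GRCm38/mm10 or Sscrofa11.1 and broad peaks, from a program not given in the sources used here, passed an irreproducible discovery rate of 0.01. The submitters' processing notes name Bowtie2 2.3.5, SAMtools 1.9, Trimmomatic 0.39, deepTools 3.5 and FastQC 0.11.9.

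Peaks were placed on the RefSeq annotations of the same assemblies with Python 3.11.15, numpy 2.4.6 and pysam 0.24.0. Sequences within 1 kb of a TSS, or under a distal H3K27ac peak, were searched with blastn 2.17.0 at an E value of 1e-5 in the locus of the other species and 250 kb around it. Overlap counting was tested on simulated peaks. The 10 genes and all lists were chosen with earlier results of these data known. Named are the 10 genes, the genes of other blood lists with H3K27ac in either species up to 8 in alphabetical order, and up to 4 examples of endothelial and mesenchymal genes. Some genes of these lists are not reported here.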

Additional observations from a re-analysis of the deposited data

How the results depend on the processing

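No paired analysis was possible because each peak list is a consensus over replicates. The number of genes marked kept within 1.5 times its value under other windows, and the exceptions follow. With the wider 50% of peaks, H3K4me3 marked 5 genes in mouse and 1 in pig, against 40.4% and 42.9% of all coding genes. With the 5′ end of the gene record alone it marked 1 in pig, against 61.5%. Counting peaks in the gene body and 5 kb before it, chosen after the data were seen, gave 5 pig genes for H3K4me3 and 4 for H3K27ac. The shares of all pig coding genes were then 70.5% and 56.4%. Counting sequence matches gave 1 pig gene for H3K27ac. The median ratio of H3K4me3 widths, mouse over pig, was 5.60 and fell to 3.02 relative to the list medians. Distal H3K27ac peaks in mouse and pig numbered 8 and 15 within 100 kb, 3 and 10 within 50 kb, 5 and 8 when closest to the gene, and 9 and 15 among the wider 50%. Distal H3K4me1 peaks numbered 51 and 74, 31 and 44, 37 and 48, and 64 and 84 in the same settings. The ratio of distal H3K27ac, mouse over pig, was 0.788 by number, 0.300 within 50 kb and reversed to 1.41 by length covered. The whole H3K27ac list was likewise shorter by number in mouse than in pig (20875 against 27566 peaks) and longer by length covered (61786 against 34093 kb). Fewer peaks enter each of the narrower counts by construction, and the cause of the other changes was not tested. Peaks without scores could be made stricter only by width. A mark missing from a list was not called, which does not show that it is absent at an unknown depth.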
